A study of Rattus norvegicus with 4 samples.

Results

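The antigen presentation genes were examined here across the cell types of the rat anterior pituitary. A gene was taken as a member when its symbol started with RT1-, the prefix of the rat major histocompatibility complex (MHC), or was *B2m*, *Cd74*, *Tap1*, *Tap2*, *Tapbp*, *Psmb8*, *Psmb9*, *Psmb10*, *Ciita*, *Nlrc5*, *Ctss* or *Erap1*, and when at least 1 UMI (unique molecular identifier, 1 tag per captured mRNA molecule) was found in 5 or more cells. This gave 45 members, 33 of them RT1 genes, out of 30058 genes listed, of which 20948 met the same limit of 5 cells. Single-cell RNA sequencing (10X Genomics, 3′ kit v2) was done on anterior pituitaries of Sprague Dawley rats dispersed with trypsin and EDTA. The female group was diestrous animals of postnatal day 44 and the male group animals of postnatal day 59. For each sex 4 pituitaries were dispersed as 1 pool that was loaded on 2 lanes, so the lanes are technical replicates. P-values of comparisons made on lanes measure only the spread between lanes. Comparisons between cell types were made on sums per type and pool. Their p-values measure how far the type differences disagree between the 2 pools. Sex, age and pool, with whatever RT1 alleles its animals carried, cannot be told apart. Of 51 candidate genes, 6 were not members: *RT1-M5* and *RT1-M6-1* were found in 1 cell each, and *RT1-M4*, *RT1-M1-5*, *RT1-DMa* and *RT1-DMb* had no UMI. The members nearest the limit were *Tap2* (6 cells), *RT1-M1-2* and *RT1-Ha* (7 cells each), *RT1-Db2* (8 cells) and *RT1-T24-2* (11 cells).

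Class I molecules are a heavy chain paired with beta-2-microglobulin (*B2m*), and nearly all nucleated cells show peptides of their own proteins on them. These peptides are cut by the proteasome, whose interferon-induced subunits are *Psmb8*, *Psmb9* and *Psmb10*, carried into the endoplasmic reticulum by the *Tap1*-*Tap2* transporter, trimmed by *Erap1* and loaded with the help of tapasin (*Tapbp*). Class II molecules are pairs of alpha and beta chains, in the rat RT1-B (*RT1-Ba*, *RT1-Bb*) and RT1-D (*RT1-Da*, *RT1-Db1*), and are the mark of macrophages, dendritic cells and B cells. They travel with the invariant chain *Cd74*, which cathepsin S (*Ctss*) degrades before peptide binds, and *RT1-DOa* with *RT1-DOb* modulate the loading. *Ciita* is the master activator of class II genes and *Nlrc5* that of class I genes.

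Promoter windows of 300 bases (250 before to 50 after the start, RefSeq, assembly GRCr8, which is not the build the counts were made on) were found for 39 of the 45 members, and not for *RT1-M2*, *RT1-M1-4*, *RT1-CE7*, *Ciita*, *Nlrc5* and *Erap1*. They were searched on both strands for the core of the Y box (ATTGG), the core of the X1 box (AGCAACNGA) and the core of the interferon-stimulated response element, ISRE (GAAANNGAA). The sites below are those of the class II chains, which set leukocytes apart in the counts, and of members from the class I route. Each is printed along the gene's own strand with 8 flanking bases on each side, and capitals mark the match. Where a match lies on the opposite strand, the capitals hold its reverse complement.
RT1-Da, X1 box core, chr20:4515324-4515348, plus strand: ctttccctAGCAACAGAtgtgttgg
RT1-Da, Y box core, chr20:4515358-4515378, plus strand: tttttctgATTGGctagaact
RT1-Db1, X1 box core, chr20:4560259-4560283, minus strand: ctctaactAGCAACTGAtgatgctg
RT1-Db1, Y box core, chr20:4560230-4560250, minus strand: tgctgctgATTGGctccccgg
RT1-DOb, X1 box core, chr20:4627621-4627645, minus strand: ttctgcctAGCAACCGAtgatgcaa
RT1-DOb, Y box core, chr20:4627594-4627614, minus strand: cactcttgATTGGttaaacag
RT1-Ba, Y box core, chr20:4577006-4577026, plus strand: attttctgATTGGtctgtcgg
RT1-Bb, Y box core, chr20:4604167-4604187, minus strand: cagtgctgATTGGctcctcac
B2m, ISRE core, chr3:129549172-129549196, plus strand: aagaacatGAAACTGAAaatgggaa
RT1-N3, ISRE core, chr20:2666269-2666293, plus strand: caatgtgcTTCAGTTTCactttcca
RT1-S3, ISRE core, chr20:2675409-2675433, plus strand: ctgctgctTTCTCTTTCataaagac
Tap1, ISRE core, chr20:4668647-4668671, minus strand: tggctgctTTCGGTTTCttcttcct
Psmb10, ISRE core, chr19:50743349-50743373, minus strand: gcaaaggcGAAAGTGAAagagaaga

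An X1 core followed by a Y core on the gene's strand was found in 4 of the 8 class II windows, those of *RT1-Da*, *RT1-Db1*, *RT1-DOb* and *RT1-Db2*, with 22 to 25 bases between the cores. Both cores were in 0.487% of all 33469 windows. The X1 core alone was in 1.33% of all windows and in no other member. The Y core was in 8 of 8 class II windows, in 14 of 22 class I windows and in 37.5% of all windows. The ISRE core was in 10 of 39 member windows (25.6%) against 9.71% of all windows. It was in all 3 windows of the transport and loading group, in 2 of 3 of the immunoproteasome group and in those of *B2m* and *Ctss*, in 3 of 22 class I windows, and in 0 of 8 class II windows. A match describes letters and not a bound site.

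The files held 7861 cells, and 6848 remained after quality control and classification by marker genes. These were 361 erythrocytes (E), 548 leukocytes (Le), 133 endothelial cells (EC), 2313 folliculostellate cells (FSC), 794 corticotrophs (C), 238 gonadotrophs (G), 87 thyrotrophs (T), 1888 somatotrophs (S) and 486 lactotrophs (L), the last 5 being the hormone-producing cells (HPC). The remaining cells of lanes 1 and 2 (female) and lanes 3 and 4 (male) held 16140615, 17305734, 19534416 and 19742976 UMIs. Median UMIs per cell were 6481.5 in Le, 8246 in E and up to 13653.5 in S, and precision is lowest in T and EC. The Y-linked *Eif2s3y* had 0, 1, 2038 and 2100 UMIs in the 4 lanes and *Kdm5d* 0, 0, 228 and 264, as the sex labels require, while the Y-linked *Ddx3y* was low in all (10, 8, 11 and 14). Cell names were checked on genes not used to classify. *Ptprc*, the pan-leukocyte antigen, was at 204 CPM (UMIs of the gene for each 1000000 UMIs of the cell type) in Le and at most 0.866 CPM elsewhere, and *Cdh5*, the endothelial cadherin, was at 442 CPM in EC and at most 0.812 CPM elsewhere. *Cd52*, listed as a leukocyte gene, was not one here, with 0.541 CPM in Le and 144 CPM in E. In total 30 barcode sequences occurred in more than 1 lane. Levels are given as CPM of a cell type, a scale on which the hormone and globin mRNA of a cell lowers all its other genes. These mRNAs took 65.8% of the UMIs in E, 14.7 to 30.2% in the HPC types and at most 0.600% in Le, EC and FSC. Because 1 UMI stands for 1 molecule tagged at its 3′ end, gene length does not enter.

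Most members were highest in non-endocrine cells. Le held the highest level of 28 of the 45 members, which include *B2m*, *Cd74*, *Ctss*, both regulators, all 8 class II genes, all 3 immunoproteasome subunits, *Tap1*, *Tapbp* and 10 of the 25 class I genes. EC held the highest level of 8 class I genes and of *Erap1*. The class I genes took 28.0% of all member UMIs, *Cd74* 23.4%, the class II chains 22.0%, *B2m* 19.5%, the immunoproteasome 3.23%, *Ctss* 2.65%, transport and loading 1.12% and the regulators 0.0463%. When hormone and globin genes were left out of the totals, the highest type changed for 3 members, *Psmb10* (to C), *Tapbp* (to T) and *RT1-M1-4* (to S). These orders are levels, and tests follow below for the 36 members with enough counts. The 9 members not tested between types were *RT1-M1-4*, *RT1-T24-2*, *RT1-M1-2*, *RT1-O1*, *RT1-CE6*, *RT1-Db2*, *RT1-Ha*, *Psmb8* and *Tap2*.

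**Figure D1:**
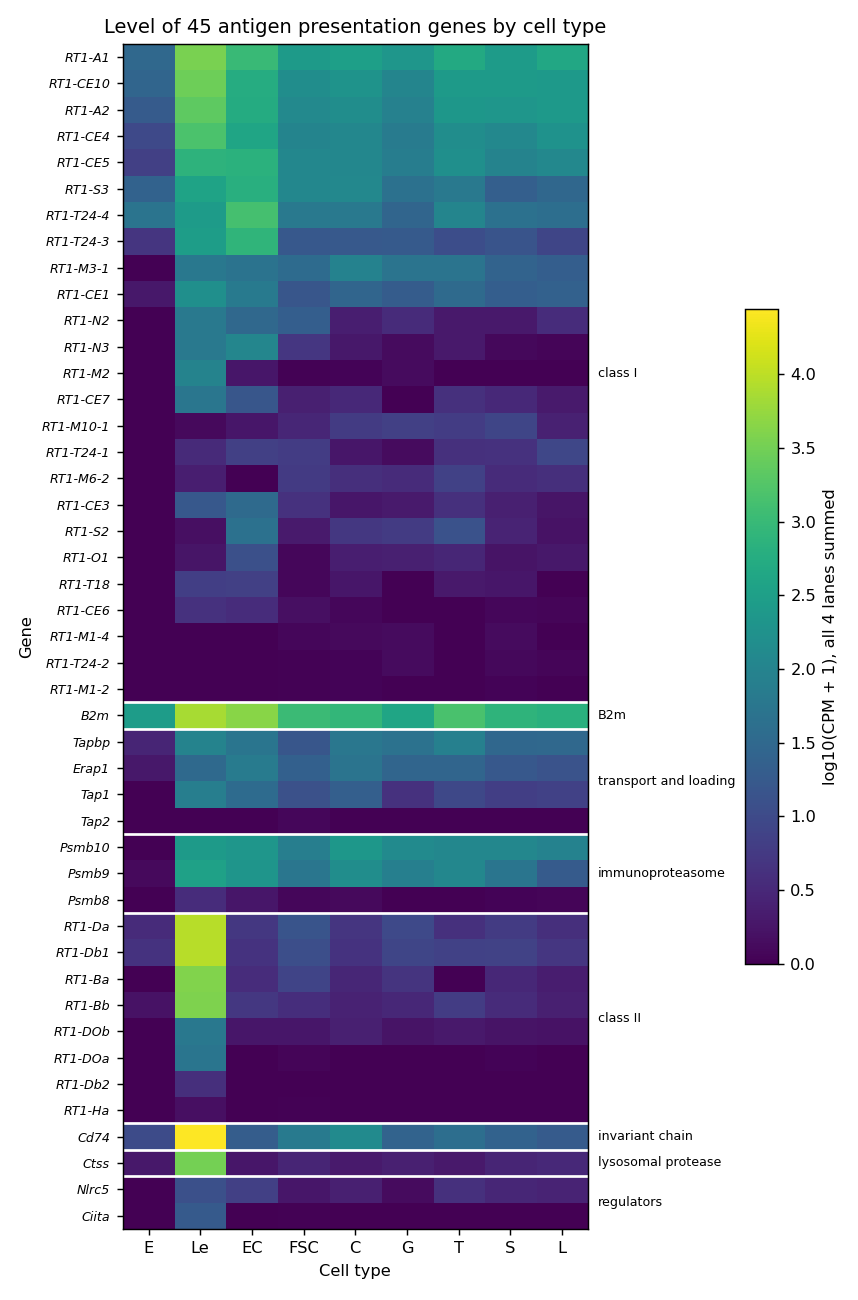
Level of the 45 members (rows, grouped by role) in the 9 cell types (columns), as log10 of CPM plus 1 over the summed cells of a type. Le is brightest for the class II genes, *Cd74* and *Ctss*. Summed over the class II genes, the Le lanes stand at 20900 to 30000 CPM and the other types at 6.67 to 34.5 CPM. *B2m* and the abundant class I genes are seen in every type.

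*B2m* was at 7120 and 7200 CPM in Le of the female lanes and at 7330 and 7270 CPM in those of the male lanes. EC followed with 4830, 4950, 4110 and 3900 CPM. T (1170 to 1570 CPM), FSC (976 to 1250 CPM) and C (733 to 1040 CPM) came next, then S (647 to 853 CPM), L (592 to 724 CPM), G (336 to 602 CPM) and E (267 to 298 CPM). Le and EC stood apart from each other and from all other types in every lane, E lay below all, and each neighbouring pair from T down to G overlapped between lanes. In E, 82.8% of cells had a *B2m* UMI (exact 95% interval 78.5 to 86.6%) against 100% in Le, and the level in E was 838 CPM without hormone and globin mRNA.

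The summed class I level was highest in Le, although single genes had other orders (10 of 25 were highest in Le and 8 in EC). *RT1-A1*, a classical class I gene and the most abundant heavy chain, was at 4480, 4170, 2750 and 2800 CPM in Le and at 1160, 1310, 836 and 576 CPM in EC. In the other types its lanes ranged from 18.4 CPM in E to 575 CPM in T, and 22.4% of E (18.2 to 27.1%) had a UMI of it against 99.6% of Le. *RT1-CE10* was at 2720 to 3150 CPM in Le and 514 to 600 CPM in EC. *RT1-A2* was at 2150 to 2280 CPM in Le and 393 to 660 CPM in EC, and *RT1-CE4* at 915 to 2440 CPM and 185 to 598 CPM. For these 4 genes the Le lanes lay above all EC lanes, and the summed class I level was 14700, 13500, 11200 and 10600 CPM in Le and 7610, 7670, 4550 and 4790 CPM in EC. The RT1 class I genes are near-identical copies and reads that match several of them are not counted, so the split between single genes is uncertain.

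Le were compared with the mean of the 6 pituitary types (FSC and the 5 HPC types) on UMI sums per type and sex with edgeR. Of the 36 members tested, 30 were higher in Le and 0 lower at an adjusted p below 0.001, where 18.5% of all genes tested were called higher and 13.1% lower. Of these, 7 (*Ctss*, *Ciita*, *Nlrc5*, *RT1-M2*, *RT1-T18*, *RT1-DOa* and *RT1-DOb*) passed the filter on low counts through Le alone and so had to differ. The other 23 calls include *RT1-CE3*, *RT1-CE7*, *RT1-N3* and *RT1-Bb*. These passed only with the sums of Le and EC counted and so had to differ from the pituitary types as well. The median log2 difference of the tested members was 3.93 (range -3.40 to 11.91) against -0.22 over all genes, and library size in place of TMM scaling left 30 higher and 0 lower while all genes turned from 2516 higher and 1786 lower to 1942 and 2388. *B2m* was higher by 3.49 on the log2 scale (SE 0.154, edgeR adjusted p = 1.84e-11). *RT1-A1* was higher by 3.78 (SE 0.209, edgeR adjusted p = 3.03e-10), *RT1-CE10* by 4.28 and *RT1-A2* by 4.12. In all, 15 of 20 tested class I genes were called. The 6 members not called were *RT1-M3-1* (log2 difference 0.89, edgeR adjusted p = 0.00818), *Erap1* (0.78, edgeR adjusted p = 0.00423), *RT1-S2*, *RT1-T24-1*, *RT1-M6-2* and *RT1-M10-1*, of the M10 family known from vomeronasal neurons.

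Class II genes separated Le from every other type by a far wider margin. *Cd74* was the most abundant member of all and stood at 23400, 27500, 29400 and 29500 CPM in Le. Elsewhere its highest lane was 145 CPM, in C. *RT1-Da*, the alpha chain of RT1-D, was at 7700, 8860, 10100 and 10100 CPM in Le, and its beta chain *RT1-Db1* at 7460, 8790, 9880 and 10300 CPM. *RT1-Ba* (3030 to 4720 CPM) and *RT1-Bb* (2570 to 5010 CPM), the RT1-B pair, were lower. *Ctss* was at 3540, 3520, 2920 and 2930 CPM in Le and at 0.866 to 2.22 CPM over the other types. Of the 6 class II genes tested, *RT1-DOa* and *RT1-DOb* had to differ by the filter, like *Ctss*, and the other 4 were called higher in Le, with *RT1-Da* at a log2 difference of 11.10 (SE 0.183, edgeR adjusted p = 1.95e-16) and *RT1-Bb* at 10.94 (SE 0.150). *RT1-Bb* passed the filter only with the sums of Le and EC counted, so it had to differ as well. *Cd74* was higher by 9.79 (SE 0.231, edgeR adjusted p = 1.01e-14) and *Ctss* by 11.36 (SE 0.191). *RT1-DOb* was at 56.9 to 63.3 CPM in Le. *RT1-DOa* had 192 UMIs in Le (25.8 to 80.9 CPM), 3 in FSC and 3 in S. *RT1-M2*, a nonclassical class I gene, had 349 UMIs in Le (55.9 to 133 CPM) and 1 each in EC, FSC, C and G.

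The traces of class II mRNA outside Le were set beside genes that only macrophages should hold. *C1qa*, *C1qb* and *C1qc*, the subunits of complement C1q, were found in the other types at 0.00879 to 0.124% of their Le level, and *Lyz2* at 0.0178 to 0.119%. *RT1-Da* lay at 0.0273 to 0.139% and *Ctss* at 0.0270 to 0.0692%. Taken over all types outside FSC these ranges overlapped. Whether UMIs at this level come from the cells themselves was not tested. In FSC, *RT1-Ba* (0.175%), *RT1-Da* (0.139%) and *RT1-Db1* (0.115%) lay above the C1q genes (0.0527 to 0.0869%), and *RT1-Ba* in lane 2 was at 0.355%. *RT1-Bb* (0.0722%), the partner chain of *RT1-Ba*, and *Ctss* (0.0577%) lay within the range of the C1q genes there. In G, *RT1-Da* (0.0924%), *RT1-Ba* (0.0882%) and *RT1-Db1* (0.0817%) also lay above the C1q genes of that type (0.0361 to 0.0693%). There 1 cell held 20 of the 61 class II chain UMIs. *RT1-Bb* lay above the C1q genes in T (0.132% against 0.0284 to 0.124%) and in EC (0.112% against 0.0719 to 0.109%), on 5 UMIs in each. *RT1-Da* had a UMI in 91.8% of Le and in 2.22 to 6.46% of the cells of other types, E (2.22%) among them. *Cd74* had a UMI in 8.03% of E (5.45 to 11.3%), a type that should lack it. *Cd74* in C (0.482% of the Le level) and in FSC (0.233%) lay above these ranges and is described with those types. In T it was at 0.141%, just above them, on 38 UMIs. *Tyrobp*, another leukocyte gene, was at 0.193% there, on 7 UMIs.

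**Figure D2:**
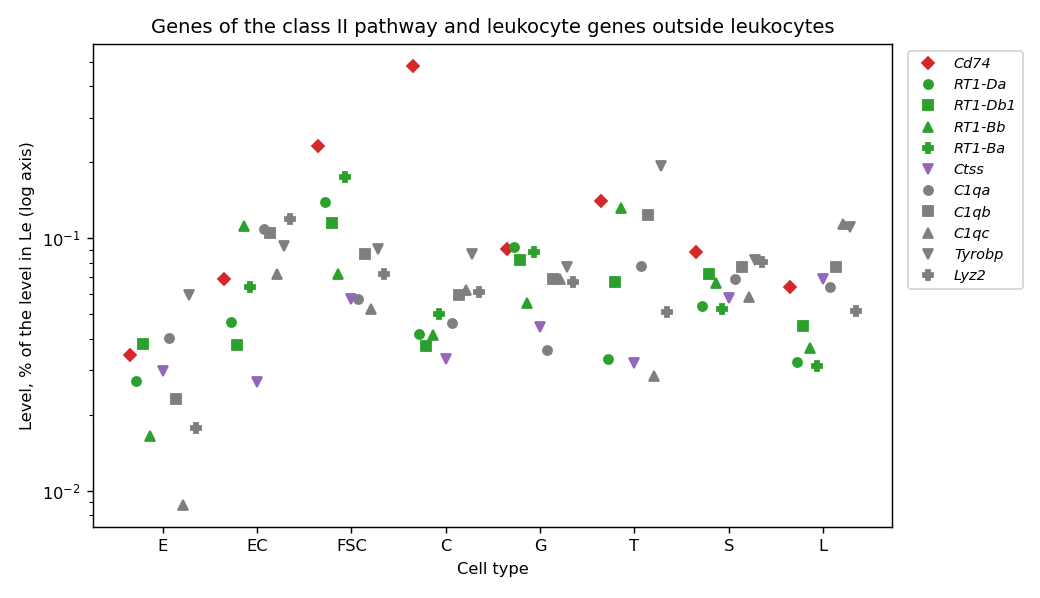
Level of 6 class II route genes (*Cd74*, *RT1-Da*, *RT1-Db1*, *RT1-Ba*, *RT1-Bb*, *Ctss*) and 5 leukocyte genes (*C1qa*, *C1qb*, *C1qc*, *Tyrobp*, *Lyz2*) in each cell type other than Le, as a percent of the level in Le, on a log axis, where *RT1-Ba* in E and T is at 0 and not drawn. Most points lie together near or below 0.1%, and *Cd74* in C, at 0.482%, is the point farthest above the leukocyte genes of its type.

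Among the peptide supply and transport genes, *Psmb9*, *Psmb10*, *Tap1* and *Tapbp* were called higher in Le, *Erap1* was not, and *Psmb8* and *Tap2* were not tested. *Psmb9*, the beta1i subunit of the immunoproteasome, was at 336, 332, 380 and 355 CPM in Le and 144 to 245 CPM in EC, and higher in Le than in the pituitary types by 2.73 on the log2 scale (SE 0.261). *Psmb10*, the beta2i subunit, was at 218 to 291 CPM in Le and overlapped with C (204 to 242 CPM), and its difference was 1.46 (SE 0.164, edgeR adjusted p = 1.59e-06). *Psmb8*, the beta5i subunit, had 22 UMIs over all types, 10 of them in Le. *Tap1* was at 75.8, 67.6, 81.9 and 88.8 CPM in Le, at 17.7 to 43.1 CPM in EC and at 0 UMIs in E, with a log2 difference of 3.66 (SE 0.238). *Tap2* had 5 UMIs, 4 in FSC and 1 in S, and none in Le. Whether reads of *Tap2*, *Psmb8*, *RT1-DMa* and *RT1-DMb* were lost to overlapping or similar genes in the reference could not be checked, so their low counts are not read as low expression. *Tapbp* was at 81.9 to 120 CPM in Le, overlapping with T, and its difference was 1.67 (SE 0.216). *Erap1* was highest in EC. Of the regulators, *Nlrc5* was at 8.56 to 15.4 CPM in Le and 6.06 CPM over EC. *Ciita* had 62 UMIs in Le (10.1, 8.59, 24.1 and 22.5 CPM), 1 in FSC, 1 in S and 0 elsewhere. DESeq2 did not call it (adjusted p = 0.113), nor *RT1-DOa* (adjusted p = 0.0514) or *RT1-M2* (adjusted p = 0.0287), which edgeR called higher in Le.

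**Figure D3:**
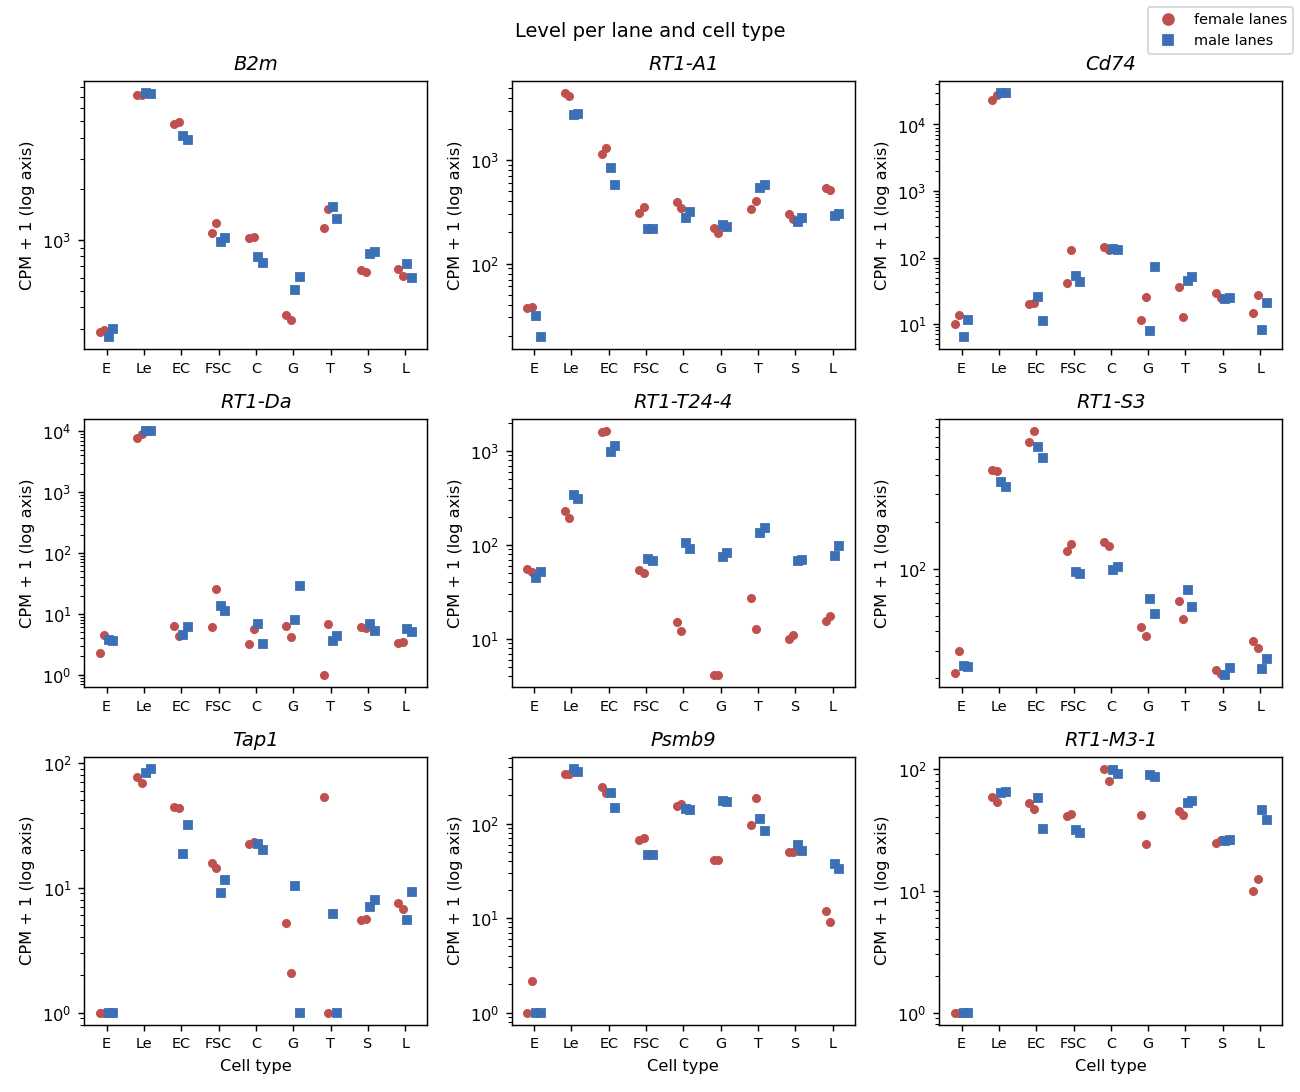
CPM plus 1 of 9 members in each lane (points, 2 female and 2 male) for the 9 cell types, on a log axis. *B2m* and *RT1-A1* step down from Le to EC to the pituitary types, *Cd74* and *RT1-Da* are high in Le alone, *RT1-S3* is highest in EC, *RT1-M3-1* is highest in C, and the female and male points of *RT1-T24-4* part in the HPC types.

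Within the leukocytes the members differed between subsets. Most Le were macrophage-like: 494 had a UMI of at least 2 of the 3 C1q genes, 51 had none. Summed per lane and compared within lanes, 6 of 28 tested members were higher in the C1q-positive Le and 0 lower, where 3.51% of all genes were called higher and 3.42% lower (member median 0.82, all genes -0.01). *RT1-M2*, 1 of the 6, passed the filter on low counts through the C1q-positive sums alone. *RT1-A1* was at 4810, 4370, 2970 and 2980 CPM in C1q-positive Le and at 2320, 1430, 953 and 942 CPM in C1q-negative Le, a log2 difference of 1.71 (SE 0.155, edgeR adjusted p = 6.35e-07). *Ctss* was at 3210 to 3960 CPM against 92.9 to 682 CPM, a difference of 3.29 (SE 0.287, edgeR adjusted p = 3.7e-07). *RT1-CE10* (1.45), *RT1-CE4* (1.38) and *RT1-A2* (1.32) were also higher, the last 2 of these losing the call without lane 2 (*RT1-CE4* 1.29, edgeR adjusted p = 0.00120; *RT1-A2* 1.06, edgeR adjusted p = 0.00252). *RT1-M2* had 348 UMIs in C1q-positive and 1 in C1q-negative Le, a ratio per UMI of 34.3 (exact 95% interval 6.11 to 1360, counting error only). Without lane 4 the number of members called was 12 in place of 6 (share of all genes called without that lane not given here).

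Of the 6 class II genes tested, edgeR called 0 in this comparison, and 5 had an unadjusted p below 0.05 (share of all genes at that limit not given here). *Cd74* was at 24900, 29000, 31100 and 32400 CPM in C1q-positive Le and at 12600, 7510, 15300 and 584 CPM in C1q-negative Le (log2 difference 2.37, SE 0.523, edgeR adjusted p = 0.00359). *RT1-Da* was at 7990, 9300, 10600 and 11100 CPM against 5230, 2970, 6440 and 146 CPM. In both the C1q-negative lanes were all lower and spread widely, lane 4 lowest. Counted per cell, *Cd74* and the 4 chains *RT1-Da*, *RT1-Db1*, *RT1-Ba* and *RT1-Bb* took a median of 577 of 10000 UMIs in C1q-positive Le (10th to 90th percentile 173 to 968), and 435 of 494 cells held all 5 genes. In C1q-negative Le the median was 1.74, with 19 of 51 cells at 0, 32 cells under 10 and 7 cells over 500. In these cells 17 of 51 held all 5 genes. By fixed markers, the 15 NK-like Le had 52.7 CPM of *Cd74* and 7430 CPM of *B2m*, the 9 T cell-like Le had 22.0 and 8330 CPM, and the 3 dendritic-like Le had 28000 CPM of *Cd74*. Of the 9 T cell-like Le, 7 were in lane 4, which held 13 C1q-negative Le. Whether this bears on the low level of that lane was not tested. Medians of C1q-positive Le were 422 and 557 in the female lanes and 635 and 666 in the male lanes.

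**Figure D4:**
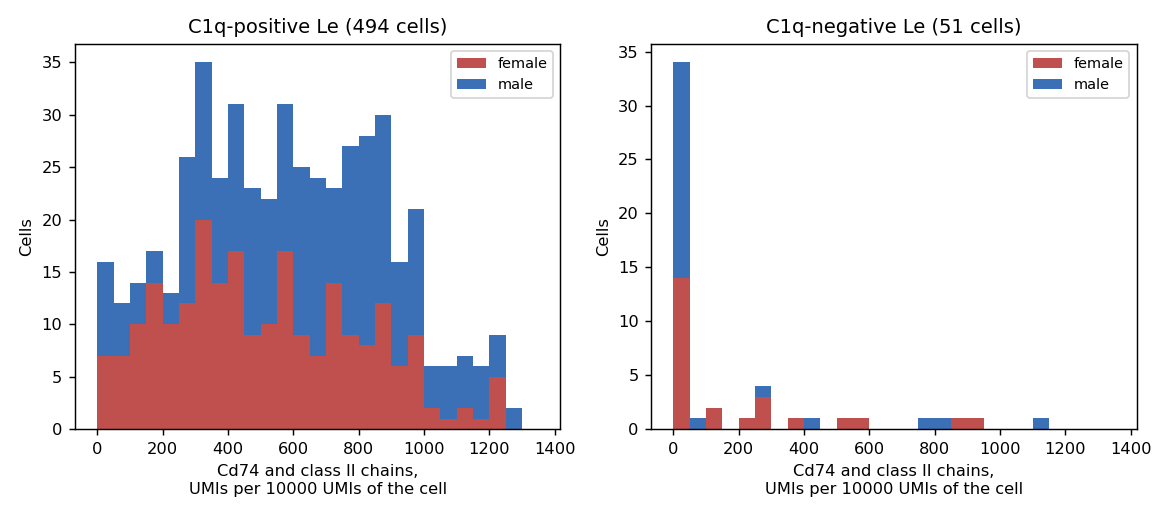
Numbers of cells by their UMIs of *Cd74*, *RT1-Da*, *RT1-Db1*, *RT1-Ba* and *RT1-Bb* per 10000 UMIs of the cell, for 494 C1q-positive and 51 C1q-negative Le, stacked by sex. The C1q-positive cells form 1 broad hump with a median of 577, whereas the C1q-negative cells pile up at the low end (32 of 51 under 10) with 7 cells over 500.

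In endothelial cells class I genes were higher than in the pituitary types. Against the 6 pituitary types, 13 of 36 tested members were higher in EC and 0 lower, where 13.0% of all genes were called higher and 8.21% lower (member median 1.21, all genes -0.22). Library size in place of TMM scaling gave 17 higher and 0 lower members, and moved all genes from 1775 higher and 1118 lower to 2154 and 580. *B2m* was higher by 2.06 on the log2 scale (SE 0.166, edgeR adjusted p = 5.78e-08), and 11 of the 13 calls were class I genes, of which 10 were also called in Le and *RT1-S2* was not. *RT1-N3*, a nonclassical class I gene, was at 110, 117, 99.2 and 103 CPM in EC, above Le (55.6 to 72.0 CPM) and FSC (2.31 to 5.39 CPM), with a difference of 6.92 (SE 0.291). *RT1-T24-3* was at 1090, 1180, 255 and 391 CPM in EC, overlapping with Le (168 to 465 CPM), with a difference of 5.24 (SE 0.184, edgeR adjusted p = 2.53e-12). *RT1-T24-4* was at 1600, 1630, 975 and 1130 CPM in EC, above every lane of Le (195 to 342 CPM), and differed by 4.97 (SE 0.455, edgeR adjusted p = 2.54e-07). *RT1-T24-4* had a UMI in 98.5% of EC, 78.3% of Le and 28.5% of E. *RT1-S3*, at 510 to 759 CPM in EC and 330 to 428 CPM in Le, was higher than in the pituitary types by 3.16 (SE 0.172), and *RT1-CE3* (4.10), *RT1-S2* (4.01), *RT1-CE7* (3.53) and *RT1-CE5* (2.11) were called as well. Of the genes called in EC, *RT1-CE3*, *RT1-CE7* and *RT1-N3* passed the filter on low counts only with the sums of Le and EC counted. They so had to differ from the pituitary types.

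The remaining EC calls depended on single lanes. *Erap1*, the trimming aminopeptidase, was at 91.5, 68.4, 53.2 and 46.3 CPM in EC against 41.8 to 57.8 CPM in C, and its difference of 1.13 was 0.89 without lane 1 (edgeR adjusted p = 0.00768). *RT1-A1* (1.19) was not called without lane 2 (1.14, edgeR adjusted p = 0.00135) or lane 3 (1.12, edgeR adjusted p = 0.00167). *RT1-CE10* (1.17) was not called without lane 2 (1.15, edgeR adjusted p = 0.00101) or lane 4 (1.10, edgeR adjusted p = 0.00118), nor *RT1-N2* (3.03) without lane 1 (3.58, edgeR adjusted p = 0.00165) or lane 2 (2.60, edgeR adjusted p = 0.00318). *Erap1* also lost its call without lanes 2 and 3. In EC edgeR called 0 of 6 class II genes, and 0 had an unadjusted p below 0.05 (share of all genes at that limit not given here). *Cd74*, at 10.3 to 24.8 CPM, was not called either (log2 difference -1.45, edgeR adjusted p = 0.0168).

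Folliculostellate cells differed from HPC in a handful of members, in either direction a smaller share than among all genes. In FSC 5 of 36 tested members were higher and 2 lower, where 17.2% of all genes were called higher and 9.16% lower (member median 0.01, all genes 0.09). With library size in place of TMM scaling the split was 6 higher and 1 lower for members, and for all genes 2801 higher and 765 lower in place of 2339 and 1247. *RT1-N2*, a nonclassical class I gene, was at 29.1, 33.3, 11.2 and 12.3 CPM in FSC and at 0.985 to 2.70 CPM over the HPC types, a log2 difference of 3.29 (SE 0.437, edgeR adjusted p = 1.21e-05). *RT1-N3* was higher by 2.80 (SE 0.394). *RT1-S3* was at 129, 143, 94.0 and 90.9 CPM and higher by 0.99 (SE 0.189, edgeR adjusted p = 3.93e-04). *Tapbp* was lower (log2 difference -2.0, SE 0.269, edgeR adjusted p = 1.37e-05), at 11.4 to 18.7 CPM against 29.0 to 86.3 CPM over the HPC types. *Psmb10* was lower as well (-1.05, SE 0.196, edgeR adjusted p = 3.2e-04), a call lost with library size in place of TMM scaling.

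*RT1-Ba* (log2 difference 2.65, SE 0.524, edgeR adjusted p = 6.59e-04) and *RT1-Da* (1.27, SE 0.260, edgeR adjusted p = 7.41e-04) were the class II chains called in FSC, and lane 2 weighed on both. *RT1-Ba* had 134 UMIs in FSC, 19 in C, 10 in G, 0 in T, 56 in S and 8 in L, so its fitted difference depends on the prior count. DESeq2 gave it 1.93. The *RT1-Ba* call was lost with thinned cells and with outliers and doublets kept, and the *RT1-Da* call with thinned cells. *RT1-Da* was at 5.14, 24.3, 12.3 and 10.0 CPM and *RT1-Ba* at 3.43, 12.8, 5.77 and 6.37 CPM, with lane 2 highest. Without lane 2 the differences were 0.69 (edgeR adjusted p = 0.0611) and 2.08 (edgeR adjusted p = 0.00507), and without lane 3 they were 1.32 (edgeR adjusted p = 0.00296) and 2.58 (edgeR adjusted p = 0.00188). A few cells carried much of this mRNA. Without the FSC with the most *Cd74* in each lane, *RT1-Da* was at 14.7 CPM and *RT1-Ba* at 8.12 CPM in lane 2. In all, 17 of 2313 FSC (0.735%; 1, 6, 6 and 4 by lane) had 5 or more UMIs of the 4 class II chains, and they held 300 of the 632 chain UMIs and 473 of the 1222 *Cd74* UMIs of all FSC. Among the 17, 12 had no UMI of any of 9 leukocyte genes, 2 had at least 3 of those genes and 1 had a C1q UMI. Among all other pituitary types and EC, 1 G and 1 S met the same limit. Without the 17 cells FSC stood at 17.7 CPM of class II chains and 40.0 CPM of *Cd74*.

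Among the hormone-producing types, members passed the test in corticotrophs. Each type was compared with the mean of the other 4, and C was higher in 4 of 36 tested members and lower in 0, where 5.96% of all genes were called in either direction. *Cd74* was higher by 2.23 on the log2 scale (SE 0.271, edgeR adjusted p = 2.76e-05). *RT1-S3* was higher by 1.58 (SE 0.195, edgeR adjusted p = 3.31e-05), at 148, 138, 96.8 and 102 CPM in C. *Erap1*, at 41.8 to 57.8 CPM in C, was higher by 1.18 (SE 0.188, edgeR adjusted p = 3.21e-04). *Tap1*, at 19.0 to 22.1 CPM in C, was higher by 1.76 (SE 0.302, edgeR adjusted p = 6.04e-04), a call lost without lane 2 (1.52, edgeR adjusted p = 0.00442), lane 3 (1.78, edgeR adjusted p = 0.00126) or lane 4 (1.65, edgeR adjusted p = 0.00123). *RT1-M3-1*, the class I gene known for presenting formylated peptides, had its highest level in C at 99.1, 78.0, 97.5 and 88.8 CPM, above every lane of Le. It was not called (1.27, edgeR adjusted p = 0.00161). *Psmb9* (1.25, edgeR adjusted p = 0.00781) and *Psmb10* (0.84, edgeR adjusted p = 0.00287), both highest in Le, were not called in C either. *RT1-M3-1* had a UMI in 63.2% of C and in 0 of 361 E (a count of 0 allows a share of up to 0.831%, and the exact 95% upper bound is 1.02%), where hormone and globin mRNA made up 65.8% of the UMIs.

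In G, T, S and L edgeR called 0 of 36 members, where 3.80%, 0.756%, 3.50% and 3.32% of all genes were called. At an unadjusted p below 0.05 there were 13, 4, 12 and 12 members. The share of all genes at that limit is not given here, so these counts cannot be set against the percentages above. DESeq2 called 9 pairs of member and type over the 5 types where edgeR called 4 (share of all genes with DESeq2 not given here). With library size in place of TMM scaling, edgeR called 1 member higher in T and 1 lower in S. Of all genes, that setting called 175 higher and 6 lower in T, and 191 higher and 177 lower in S. Whether C differs from these types in its number of calls was not tested.

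*Cd74* in corticotrophs was not accompanied by the class II chains. C had 257, 277, 366 and 344 *Cd74* UMIs in the 4 lanes (145, 130, 134 and 128 CPM), with every lane of C above every lane of the other HPC types. There were 12.2 *Cd74* UMIs for each UMI of the 4 class II chains in C (18.4, 13.2, 10.2 and 11.1 by lane), against 1.05 in Le and 1.15 to 2.71 in the remaining types. A UMI of *Cd74* was found in 64.9% of C (61.4 to 68.2%) against 8.03% of E, with median depths of 11473 and 8246 UMIs. Thinned to 2000 UMIs per cell, the shares were 21.7% and 0.554%. C1q genes in C were at 0.0461 to 0.0624% of their Le level and *Tyrobp* at 0.0863%. In the 734 C without any C1q UMI the share was 65.1% and the level 133 CPM. The mRNA was spread over many cells at low counts: the highest cell had 11 UMIs, and 57 C (7.18%) had 5 or more.

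The sexes were compared within each type on 2 female against 2 male lanes. Of 175 pairs of member and type tested, 44 were called in 18 members, 26 of them higher in females and 18 higher in males, and 36 were of class I genes (14 members). In 43 of the 44 the lanes of the sexes did not overlap, a gap that the calls themselves select for, and the share over all genes is not given here. Among the 44, some pairs passed the filter on low counts through the lanes of 1 sex alone and so had to differ. These were *RT1-S2* in EC, C and S, *RT1-T24-1* in L, *RT1-T24-4* in G and T, and *RT1-M6-2* in S. DESeq2 did not call *RT1-T24-3*, *RT1-CE1*, *RT1-M6-2* and *RT1-S2* in S, or *RT1-CE5* and *RT1-S2* in EC. Nor did it call *Psmb9* in FSC and L, *RT1-S3* in C and L, or *RT1-M3-1* in L. It gave no adjusted p for *RT1-S2* in C, *RT1-T24-1* in L and *RT1-T24-4* in T, so these were not called either. Le had 6 calls among 31 members tested (0.571% of all genes called), EC 4 among 20 (0.814%), FSC 6 among 28 (3.03%) and C 5 among 20 (0.604%). G had 2 among 16 (3.83%), T 1 among 13 (1.25%), S 9 among 29 (10.6%) and L 11 among 18 (17.6%). In L the median cell had 18301 UMIs in females and 7265 in males, and library size in place of TMM scaling turned all genes from 511 male-higher and 1009 female-higher to 2339 and 320, with a shift of the median by 0.65 on the log2 scale. With each cell thinned to 2000 UMIs, 5 of the 11 calls in L stayed below the limit (*B2m*, *RT1-A1*, *RT1-A2*, *RT1-CE10* and *RT1-CE4*) while 5 did not and *RT1-T24-1* was not tested. The members' calls in L were 3 male-higher and 8 female-higher with TMM, and 3 and 6 with library size. In G they were 2 with TMM and 6 with library size, all male-higher. All genes in G went from 110 male-higher and 153 female-higher to 335 and 152.

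**Figure D5:**
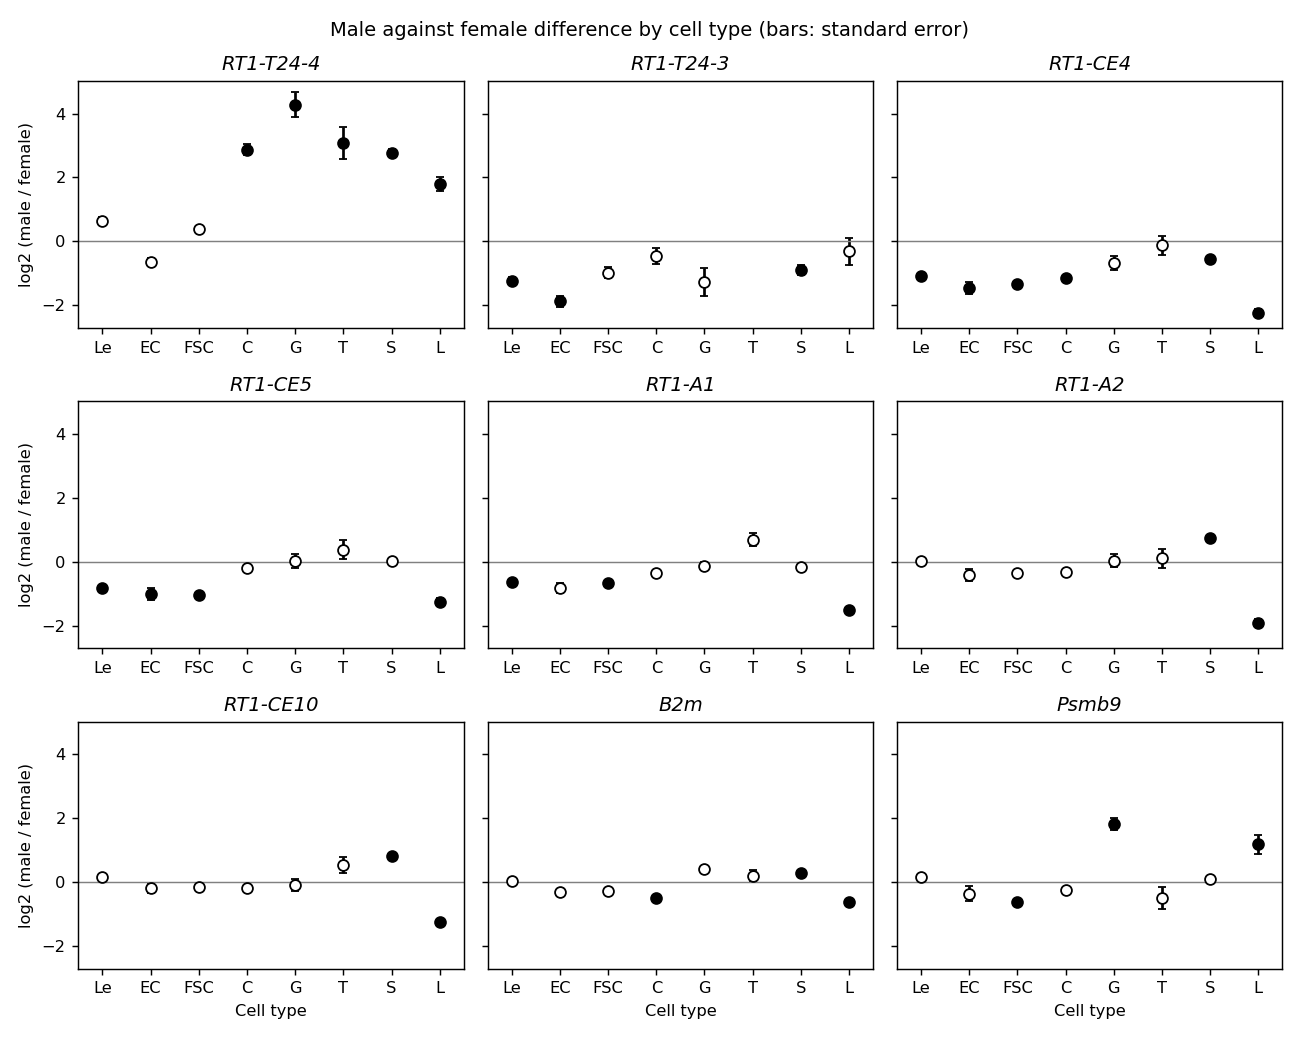
Log2 difference of males against females (TMM scaling) for selected members with a call, by cell type. Filled points are pairs called at an edgeR adjusted p below 0.001, and open points are the other pairs of these members. *RT1-CE4* lies on the female side in all 8 types, while *RT1-T24-4* lies far on the male side in the HPC types (1.79 to 4.28) and not in EC.

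Several class I genes were higher in the female pool across types. *RT1-CE4* was at 2440 and 1920 CPM in female Le and at 1120 and 915 CPM in male Le (log2 difference -1.08, edgeR adjusted p = 2.82e-07). It was called higher in females in L (-2.24; 237, 227, 70.8 and 83.8 CPM), EC (-1.47; 598, 499, 216 and 185 CPM), FSC (-1.34; 142, 151, 57.7 and 61.0 CPM), C (-1.16) and S (-0.54), and lay on that side in all 8 types. *RT1-CE5* was higher in females in L (-1.27), FSC (-1.05), EC (-1.01) and Le (-0.81; 946, 963, 564 and 514 CPM), although the EC call was lost without lane 3 (-0.71, edgeR adjusted p = 0.0645). *RT1-T24-3* was higher in females in EC (-1.88, SE 0.173, edgeR adjusted p = 2.66e-08), Le (-1.23, SE 0.117) and S (-0.90), and lay on that side in all 7 types tested. Its S call was lost with DESeq2 (adjusted p = 0.0109) and with thinned cells (-0.53). *RT1-A1* was higher in females in L (-1.51; 542, 520, 289 and 298 CPM), FSC (-0.65) and Le (-0.62, SE 0.0739, edgeR adjusted p = 9.8e-06). In FSC *RT1-N2* was higher in females as well (-1.45, SE 0.158, edgeR adjusted p = 6.81e-06).

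*RT1-T24-4* was higher in the male pool in all 5 HPC types. In S it was at 8.94 and 9.97 CPM in females and at 67.4 and 67.5 CPM in males (log2 difference 2.77, SE 0.117, edgeR adjusted p = 5.41e-19). In C it was at 14.1, 11.3, 103 and 89.9 CPM (2.87, SE 0.174), in G at 3.19, 3.17, 74.2 and 81.8 CPM (4.28, SE 0.388), in L at 14.5, 16.7, 75.4 and 96.1 CPM (1.79, SE 0.213) and in T at 26.4, 11.7, 134 and 149 CPM (3.07). The T call was lost without lane 2 (2.57, edgeR adjusted p = 0.0187). In EC the female lanes were the higher ones (1600, 1630, 975 and 1130 CPM) and in Le the male lanes (227, 195, 342 and 304 CPM), neither called. *RT1-S2* was nearly confined to male lanes, with 2 female against 50 male UMIs in EC, 1 against 38 in C and 1 against 46 in S, ratios per UMI of 35.6 (exact 95% interval 9.35 to 302), 27.4 (4.63 to 1110) and 30.6 (5.23 to 1240). Its calls were lost without lane 3 in EC (edgeR adjusted p = 0.00196), without lane 2 in S (edgeR adjusted p = 0.00208) and without any 1 lane in C (edgeR adjusted p = 0.0122, 0.00246, 0.129 and 0.00733 for lanes 1 to 4). *RT1-T24-1* in L had 47 female and 3 male UMIs, a female to male ratio of 7.71 (2.48 to 38.7). Through the lanes of 1 sex alone, *RT1-S2* and *RT1-T24-1* passed the filter on low counts in these types and so had to differ. The same held for *RT1-T24-4* in G and T.

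Some genes differed one way in S and the other way in L. *RT1-A2* was at 156, 148, 244 and 280 CPM in S (log2 difference 0.73, SE 0.0583) and at 314, 290, 141 and 110 CPM in L (-1.91, SE 0.109). *RT1-CE10* was at 188, 168, 316 and 333 CPM in S (0.81, SE 0.0514) and at 296, 277, 193 and 187 CPM in L (-1.24, SE 0.0979). With library size in place of TMM scaling both stayed on the female side in L (-1.25 and -0.58). *B2m*, their common partner chain, was higher in males in S (0.30, SE 0.0343, edgeR adjusted p = 2.07e-08), higher in females in C (-0.49, SE 0.0543), and in L lower in males with TMM scaling (-0.62, SE 0.0777) but not with library size, where the difference was 0.04 (edgeR adjusted p = 0.647). *RT1-CE1* was higher in males in S (0.91), a call lost without lane 2 (0.72, edgeR adjusted p = 0.0016).

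Outside class I, *Psmb9* was higher in male G (40.4, 40.1, 174 and 170 CPM; 1.82, SE 0.186, edgeR adjusted p = 2.19e-05) and in male L (10.8, 8.13, 36.3 and 31.7 CPM; 1.19, SE 0.292, edgeR adjusted p = 9.8e-04), and lower in male FSC (66.3, 69.0, 45.2 and 45.7 CPM; -0.61, SE 0.0930, edgeR adjusted p = 2.37e-04). The L call was lost without lane 2 (0.98, edgeR adjusted p = 0.0145), lane 3 (1.09, edgeR adjusted p = 0.0199) or lane 4 (1.29, edgeR adjusted p = 0.00136), and the FSC call without any 1 lane (edgeR adjusted p = 0.00102 to 0.00305). In Le the RT1-B chains were higher in males, *RT1-Bb* by 0.91 (SE 0.0766, edgeR adjusted p = 5.06e-08; 2570, 2750, 5010 and 4870 CPM) and *RT1-Ba* by 0.51 (SE 0.0855, edgeR adjusted p = 9.92e-04). *RT1-S3* was higher in females in L (-1.08), FSC (-0.60) and C (-0.58). Its L call was lost without lane 1 (-1.02, edgeR adjusted p = 0.00202) or lane 3 (-0.96, edgeR adjusted p = 0.00988) and its C call without lane 3 (-0.56, edgeR adjusted p = 0.00435) or lane 4 (-0.61, edgeR adjusted p = 0.00106). With library size in place of TMM scaling both were lost, at -0.42 in L (edgeR adjusted p = 0.137) and -0.52 in C (edgeR adjusted p = 0.00344). *RT1-M3-1* was higher in male L (1.35; 8.91, 11.5, 44.5 and 36.8 CPM), but not without lane 1 (1.15, edgeR adjusted p = 0.00212) or lane 3 (1.20, edgeR adjusted p = 0.00489). *RT1-M6-2* was higher in male S (2.21; 0.778, 0.739, 3.68 and 3.77 CPM), a call lost without any 1 lane. It passed the filter on low counts through the male lanes alone and so had to differ.

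Whether a sex difference was particular to a type was tested in 1 fit over 32 sums, as the difference in that type less the mean difference of the other 7. Of 296 pairs, 26 were called in 12 members, among 37 members tested in each type. By type, Le stood with 1 call (0.761% of all genes called), EC with 3 (0.204%), FSC with 4 (1.15%), C with 1 (0.306%), G with 4 (1.70%), T with 1 (0.738%), S with 5 (1.48%) and L with 7 (6.77%). *RT1-T24-4* departed to the female side in EC (-3.02), FSC (-1.75) and Le (-1.45) and to the male side in G (2.75), the G call being lost without lane 1 (2.64, edgeR adjusted p = 0.0106) or lane 2 (2.87, edgeR adjusted p = 0.00172). Its own difference in FSC and Le lay on the male side, by less than in the mean of the other types. *RT1-A2* (1.13), *RT1-CE10* (0.97), *RT1-CE4* (0.62), *RT1-CE5* (0.58) and *B2m* (0.45) departed to the male side in S. All 7 departures in L were to the female side with TMM scaling, and with library size 3 calls in L were to the male side and 4 to the female side. In G, *Psmb9* (1.84), *Tapbp* (1.37) and *B2m* (0.55) departed to the male side.

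A list of 32 rows for 31 partner genes of the pathway was read beside the members, of which 29 were tested between types. In Le 16 were higher and 0 lower (18.5% and 13.1% of all genes), of which *Irf8* and *Cd86* passed the filter on low counts through Le alone and so had to differ. *Irf8*, a myeloid transcription factor, was at 174 CPM in Le and *Cd86*, a costimulatory ligand, at 114 CPM. The other 14 include 9 interferon response genes such as *Ifit3* (10.21) and the interferon gamma receptor chain *Ifngr1* (5.40). The costimulatory receptor *Cd40* (6.46) was higher too, as were the lysosomal enzymes *Ctsh* (5.96), *Ifi30* (5.49), *Lgmn* (4.95) and *Ctsb* (2.15). Of these 14, *Ifit2*, *Ifit3* and *Cd40* passed the filter through Le and EC alone. In both types they had to differ from the pituitary types. In EC 11 were higher and 0 lower (13.0% and 8.21% of all genes), 7 of them interferon response genes, with *Ifit3* at 8.53, *Isg15* at 2.67 and *Gbp2* at 2.61. In FSC 7 were higher, led by *Ctsh* (4.79) and *Gbp2* (3.82), and 2 lower, the proteasome activator subunit *Psme2* (-1.37) and the loading factor *Pdia3* (-1.24), where 17.2% and 9.16% of all genes were called. C had 4 higher, *Gbp2* (4.50), *Isg15* (2.41), *Irf1* (2.26) and the tapasin-like *Tapbpl* (1.70), and 1 lower, *Ctsh* (-2.89), where 5.96% of all genes were called in either direction. T, S and L had 1 higher each (*Ctsh* 3.28, *Lgmn* 1.78 and *Ctsl* 1.41), and G had 0. Genes of the class II transcription complex were called in none of these comparisons. In C1q-positive Le, *Lgmn* (4.82), *Ctsb* (2.80), *Ctsh* (2.30) and *Ifngr1* (1.66) were higher and *Irf8* lower (-1.54) among 27 tested, where 3.51% and 3.42% of all genes were called.

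The interferon-induced *Isg15* also differed between the sexes in types where members did. It was at 160 and 164 CPM in female FSC and at 39.0 and 37.0 CPM in male FSC (log2 difference -2.13, SE 0.0796, edgeR adjusted p = 1.29e-11). In C it was at 82.7, 107, 42.4 and 38.8 CPM (-1.29). In both types the female lanes lay above the male lanes, as they did for *B2m* and *RT1-S3* in C and for *RT1-S3* and *Psmb9* in FSC. Of the member calls in C, however, 3 were higher in females and 2 in males, and in FSC 6 and 0. The female lanes of *Isg15* also lay above the male lanes in EC, T and S. They lay below them in G and L and overlapped with them in Le and E. A link between *Isg15* and the members was not tested, and the other interferon response genes are not given by sex here. The proteasome activator *Psme1* was higher in males in L (1.41), G (1.04) and S (0.20), and the chaperone *Calr* was higher in males in S (0.30) and in females in L (-1.25).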

How the data were processed

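The authors counted UMIs per gene and cell with Cell Ranger (version 2.1 in the submitters' processing notes) against an NCBI rat annotation with lengthened 3′ ends, and merged the 4 lanes at an equal number of mapped reads. The deposited values are raw counts, and reads matching several genes are not counted. All deposited columns were used (0 left out). Lanes were matched to the sexes by the study's cell numbers per lane, and which lane is which labelled replicate is not known.

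From these counts, cell types were rebuilt with the study's marker genes, Otsu thresholds per gene and sex (256 bins) and 30 nearest neighbours. Of the 7861 cells, 404 were put in none of the 9 types: 207 met several rules, 23 stayed unclassified, and 51 pericytes, 63 melanotrophs and 60 posterior pituitary cells were set aside. From the 9 types 609 cells were removed for a high mitochondrial share (273), as outliers of genes or UMIs (328) or as doublets (71, called with 30% synthetic doublets), some for more than 1 reason. UMIs were summed per type and sex (16 sums), or per type and lane for the sexes, and tested with edgeR 4.0.16 in R 4.3.3 (quasi-likelihood, TMM, filterByExpr with a minimum count of 10, 2-sided, Benjamini-Hochberg over all genes of a contrast, limit 0.001). E were left out of the fits. The study tested cells, which are not replicates. Scripts were tested on simulated data. Alternatives were DESeq2 1.42.0, library size, no filter, lane sums, E included, outliers kept, cells thinned to 2000 UMIs, a limit of 0.05, and each lane left out. A C1q rule of 10 UMIs was chosen after seeing the data. Exact intervals are Clopper-Pearson at 95% and, like the limit of 3 counts for a count of 0, cover counting error only. Python 3.11.15, numpy 2.4.6, scipy 1.17.1, pandas 2.3.3, scikit-learn 1.9.0 and matplotlib 3.10.9 were used.

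Members and gene lists were chosen with earlier results of these data known. Named were, in each role group, up to 4 members with the most UMIs, every member called between the sexes or in the test of departure, and partner genes by their calls. Others named were chosen after their values were seen. Fitted differences of members at or near 0 in a group depend on the prior count, and for these UMIs are given.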

Additional observations from a re-analysis of the deposited data

Results flagged for a closer look

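A lane far from the other 3 of its type (Dixon's ratio above its 95% critical value, tested in 166 groups of 4 lanes with at least 40 UMIs, where chance gives about 1 in 20) was found in 5 groups. *Cd74* in FSC was at 127 CPM in lane 2, and *RT1-Db1* in FSC at 20.0 CPM, the same lane. There 1 FSC held 184 of the 566 *Cd74* UMIs and 35 of the 89 *RT1-Db1* UMIs, and without it lane 2 was at 86.2 and 12.2 CPM, still the highest lane. *Cd74* in S was at 28.4 CPM in lane 1, the lane of the 1 S that met the same limit. *RT1-CE5* was low in lane 2, at 57.0 CPM in G and 86.6 CPM in S.

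The sex difference of a type departed from that of the other 7 types in 26 pairs, listed here on the log2 scale with positive values to the male side. *RT1-T24-4* departed by -3.02 in EC, -1.75 in FSC, -1.45 in Le and 2.75 in G. Its own difference in FSC and Le lay on the male side, by less than in the mean of the other types. In EC *RT1-T24-3* (-1.16) and *RT1-CE5* (-0.70) departed too, the first losing its call without any 1 lane (edgeR adjusted p = 0.00428 to 0.229) and the second without lane 1 (-0.58) or lane 3 (-0.38). In FSC *RT1-M3-1* (-0.95), *Psmb9* (-0.93) and *RT1-CE5* (-0.64) departed to the female side, the call of *RT1-M3-1* being lost without lane 2 or lane 3 (-0.88 for both). In G *Psmb9* (1.84), *Tapbp* (1.37) and *B2m* (0.55) departed to the male side. *Tapbp* was lost without lane 1 (1.51), lane 2 (1.26) or lane 3 (1.16) and *B2m* without lane 2 (0.48) or lane 4 (0.38). *B2m* departed by -0.46 in C (-0.43 and not called without lane 4) and *RT1-A1* by 1.44 in T.

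In S *RT1-A2* (1.13), *RT1-CE10* (0.97), *RT1-CE4* (0.62), *RT1-CE5* (0.58) and *B2m* (0.45) departed to the male side. *RT1-CE4* itself was higher in females in S (-0.54), by less than in the mean of the other types. *RT1-CE4* (0.53) and *B2m* (0.38) were not called without lane 4, nor *RT1-CE5* without lane 2 (0.50) or lane 3 (0.52). In L *RT1-A2* (-1.91), *RT1-CE10* (-1.39), *RT1-CE4* (-1.35), *RT1-A1* (-1.24), *RT1-CE5* (-0.90), *Psmb10* (-0.72) and *B2m* (-0.62) departed to the female side with TMM scaling. *Psmb10* was not called without lane 1 (-0.64) or lane 3 (-0.47), nor *RT1-CE5* without lane 3 (-0.77). With library size *Psmb10* was at -0.09 (edgeR adjusted p = 0.942) and *RT1-CE5* at -0.27 (edgeR adjusted p = 0.194).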

How the results depend on the processing

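Of 79 counts of member calls under an alternative, 63 were within 1.5 times the main count. The share of all genes called under each alternative is not given in this section. The counts below therefore cannot show whether members changed more than other genes. The 7 FSC calls became 4 with thinned cells and 12 at a limit of 0.05. The 4 HPC calls became 9 with DESeq2, 7 with library size, 23 without the filter, 18 with lane sums, 7 with E included and 20 at 0.05. The 6 C1q calls became 14 without the filter, 11 with outliers kept and 14 at 0.05. The 44 sex calls became 22 with thinned cells and 71 at 0.05, and the 26 departures 11 and 51. A limit of 0.05 admits more calls by itself. Lane sums count the 2 technical lanes of a pool as if they were replicates, which gives 32 sums in place of 16. Thinning leaves fewer UMIs and also sets all cells to the same depth. The cause of the changes with thinning and with the other alternatives was not tested. Leaving out 1 lane gave 29 to 30 calls in Le, 11 to 15 in EC, 5 to 7 in FSC, 4 to 5 in HPC, 4 to 12 for C1q, 37 to 46 for the sexes and 20 to 23 departures, with the lone lane of a sex assumed to vary like the others. The C1q rule of 10 UMIs, chosen after seeing the data, gave 6. Of 130 single calls 65 held in every alternative (24 of 30 in Le, 16 of 44 between the sexes). The reversed ones were *B2m* in L between the sexes (0.04) and its departure there (0.01), both with library size, and the departure of *RT1-T24-3* in EC (0.12, thinned cells). Library size moved the median of all genes by 0.38 in EC, 0.30 in FSC, -0.34 in Le and 0.65 in L between the sexes. Of 99 levels, 38 moved beyond the lane SD when hormone and globin genes were left out of the totals. No paired analysis was possible because, for female against male lanes, the columns carry no replicate numbers. The C1q comparison and the departures had the lane as a block.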

Other observations

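Cells left out of the 9 types also held members. The 44 pericytes had 4370 CPM of *B2m*, near the level of EC. Their *Cd74* was at 13.4, 23.4, 3410 and 42.9 CPM in the 4 lanes, with 331 of 337 UMIs in lane 3, and 137 of 139 *RT1-Da* UMIs came from the same lane. The 50 posterior pituitary cells had 21 *Ctss* UMIs. *RT1-DMa* and *RT1-DMb*, the chains of the class II peptide exchange factor, had 0 UMIs in all 7861 cells, while *RT1-Da* had 34337 in Le. Whether the reference let reads be assigned to them could not be checked.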
